A study of Mus musculus with 2 samples.

Results

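The matrix metalloproteinase (Mmp) genes described here are Mmp2, Mmp3, Mmp8, Mmp9, Mmp12, Mmp13, Mmp14, Mmp19 and Mmp23, which were taken by symbol from the gene list of the deposited tables. They are 9 of the 22 Mmp genes and of the 32285 genes in those tables. Cells of the mouse temporomandibular joint (TMJ), the joint between jaw and skull, were profiled by droplet single-cell RNA sequencing that tags the 3′ end of transcripts. Both libraries came from C57BL/6 mice that were 8-10 weeks old and had received Complete Freund's Adjuvant (CFA), an emulsion of killed mycobacteria in oil that inflames the joint. In the study's paper the mice were female. One library was wild type (WT) and the other was labelled Prox1 mutant, which in the study's paper means heterozygous Prox1+/- mice. Prox1 is the transcription factor that sets lymphatic endothelial identity. How the allele was made and the number of mice behind each library are not given in the sources used here. No library without CFA was analysed here, so that all levels below are those of inflamed joints. With 1 library per genotype there is no replicate check and no test, and every interval below covers counting error only.

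Mmps are zinc-dependent endopeptidases that cut collagens, proteoglycans, elastin and other matrix proteins, and also cytokines and other proteases. Most are secreted as inactive zymogens, a few are tethered to the membrane, and their activity is set by the cutting of the propeptide and by inhibitors such as the Timp proteins. In joints they take part in growth plate and bone remodelling, in the passage of leukocytes through tissue and in the breakdown of cartilage in arthritis. Transcript counts say nothing of how much enzyme was active.

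The members lie on 6 chromosomes in the GRCm38 build. Mmp13 (ENSMUSG00000050578, chr9:7272514-7283331), Mmp12 (ENSMUSG00000049723, chr9:7344381-7369499), Mmp3 (ENSMUSG00000043613, chr9:7445822-7455975) and Mmp8 (ENSMUSG00000005800, chr9:7558456-7568485) lie on the plus strand within 295972 bases. The other 5 are Mmp2 (ENSMUSG00000031740, chr8:92827291-92853420), Mmp9 (ENSMUSG00000017737, chr2:164940780-164955850), Mmp14 (ENSMUSG00000000957, chr14:54431612-54445364), Mmp19 (ENSMUSG00000025355, chr10:128790910-128800824) and Mmp23 (ENSMUSG00000029061, chr4:155650655-155653384, minus strand). The end of Mmp12 overlaps Mmp1b on the opposite strand, which had 0 UMIs in both libraries. Promoter sequences from RefSeq (build GRCm38.p6), of 300 bases from 250 before to 50 after the start, were at hand for 6 of the 9 members.

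The promoters of the chromosome 9 members are shown because, under the settings used here, these 4 genes had their highest levels in 4 different kinds of cell. These were bone-forming cells, a cluster with markers of inflammatory macrophages, mesenchymal (fibroblast-like) cells and neutrophils. All are written 5′ to 3′ on the plus strand, with capitals marking TGANTCA, the site of AP-1 (the factor of the Fos and Jun proteins), and TATAAA, searched on both strands.
Mmp13, chr9:7272264-7272563: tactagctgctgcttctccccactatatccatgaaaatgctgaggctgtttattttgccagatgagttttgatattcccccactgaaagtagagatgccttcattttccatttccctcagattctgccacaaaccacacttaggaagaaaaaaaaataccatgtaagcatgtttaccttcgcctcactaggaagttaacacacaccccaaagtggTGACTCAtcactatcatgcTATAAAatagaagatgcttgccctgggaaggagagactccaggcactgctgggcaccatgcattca
Mmp12, second RefSeq promoter, chr9:7347124-7347423: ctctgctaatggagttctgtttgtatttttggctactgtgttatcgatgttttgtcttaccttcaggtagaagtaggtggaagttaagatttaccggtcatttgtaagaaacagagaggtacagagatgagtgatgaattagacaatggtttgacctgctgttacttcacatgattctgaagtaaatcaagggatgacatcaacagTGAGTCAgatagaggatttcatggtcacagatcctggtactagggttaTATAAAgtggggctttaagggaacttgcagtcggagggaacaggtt
Mmp3, chr9:7445572-7445871: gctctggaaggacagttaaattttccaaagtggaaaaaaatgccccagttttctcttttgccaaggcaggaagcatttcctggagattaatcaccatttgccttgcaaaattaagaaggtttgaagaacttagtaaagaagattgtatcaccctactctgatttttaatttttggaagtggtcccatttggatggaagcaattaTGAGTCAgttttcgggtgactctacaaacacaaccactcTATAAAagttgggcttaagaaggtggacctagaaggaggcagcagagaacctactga
Mmp8, chr9:7558179-7558478: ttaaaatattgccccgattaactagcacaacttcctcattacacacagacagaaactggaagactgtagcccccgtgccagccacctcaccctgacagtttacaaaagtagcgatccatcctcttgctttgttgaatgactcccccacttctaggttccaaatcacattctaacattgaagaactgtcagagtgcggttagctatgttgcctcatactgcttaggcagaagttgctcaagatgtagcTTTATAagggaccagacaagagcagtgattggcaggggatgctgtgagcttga
TGANTCA was present in 7.81% of all 32851 RefSeq promoters of this length and TATAAA in 13.6%. Mmp13 held TGACTCA starting 35 bases before the start and TATAAA 16 bases before it. In Mmp3, TGAGTCA began 46 bases and TATAAA 7 bases before the start, and in the second Mmp12 promoter TGAGTCA began 44 bases before and TATAAA 4 bases after it. The Mmp8 promoter held no TGANTCA, and its TATAAA lay on the minus strand 3 bases before the start. The first Mmp12 promoter and those of Mmp14 and Mmp23 held neither motif. These matches describe letters in a window and are not binding sites shown in these cells.

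The WT library held 5709 cell barcodes and the mutant library 7846, of which 4352 and 5757 had at least 500 detected genes and under 10% mitochondrial UMIs (unique molecular identifiers, each counting 1 captured transcript). These kept cells held 48366846 UMIs in WT, with a median of 6997 per cell, and 54330221 in the mutant, with a median of 4848. Only 4 kept barcodes occurred in both libraries. Prox1 itself had 563 UMIs in WT and 315 in the mutant library, for a log2 ratio of -1.01 in UMIs relative to the library total. Within endothelial cells it had 295 and 119 UMIs, a log2 ratio of -0.69 (-1.01 to -0.38). Clustering without any Mmp gene gave 43 clusters, of which 31 were named into 20 cell types from their markers. The 12 unnamed clusters held 12.2% of WT cells and 36.5% of mutant cells, or 8.90% and 16.4% of all UMIs, so that the libraries differed in their make-up. Among them, clusters 9 and 20 had 6 of 6 endothelial markers raised but were left unnamed as shallow, with none of those markers leading. Cluster 6 (262 WT and 207 mutant cells) had all 5 markers of inflammatory, M1-like macrophages raised, but Dcstamp, a gene of osteoclast fusion, was among its 10 leading genes. The 6 osteoclast markers summed to 1271 CPM in WT and 818 in the mutant there, but unevenly. They ranged from 0.119 to 572 CPM in WT and from 0 (Oscar) to 454 CPM in the mutant. Mature neutrophil markers summed to 984 and 2598 CPM in the same cluster. It is therefore called only cluster 6 below. C1q macrophages carried the complement genes C1qa, C1qb and C1qc and other general macrophage markers.

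Levels are given as CPM, a gene's share of all UMIs in the cells of a type and library multiplied by 1000000, with the exact Poisson 95% interval in parentheses. A 3′ count does not scale with transcript length, but capture differs between genes, so levels are compared between cell types and libraries and not between genes. Shares of cells with a UMI are given after thinning each cell to 2000 UMIs, because the libraries differed in depth. Cells with fewer were left out, namely 12 WT and 28 mutant mesenchymal cells, 4 and 9 of cluster 6, 1 and 0 immature neutrophils, 46 and 37 mature neutrophils and 28 and 25 B cells. B cells, which should lack these enzymes, served as the background type, with a median of 4013 UMIs per cell in WT and 4719 in the mutant, against 12299 and 14801 in mesenchymal cells and 30334 and 26242 in cluster 6. T and NK cells had been planned as background too, and their values are given for Mmp8 and Mmp9.

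**Figure D1:**
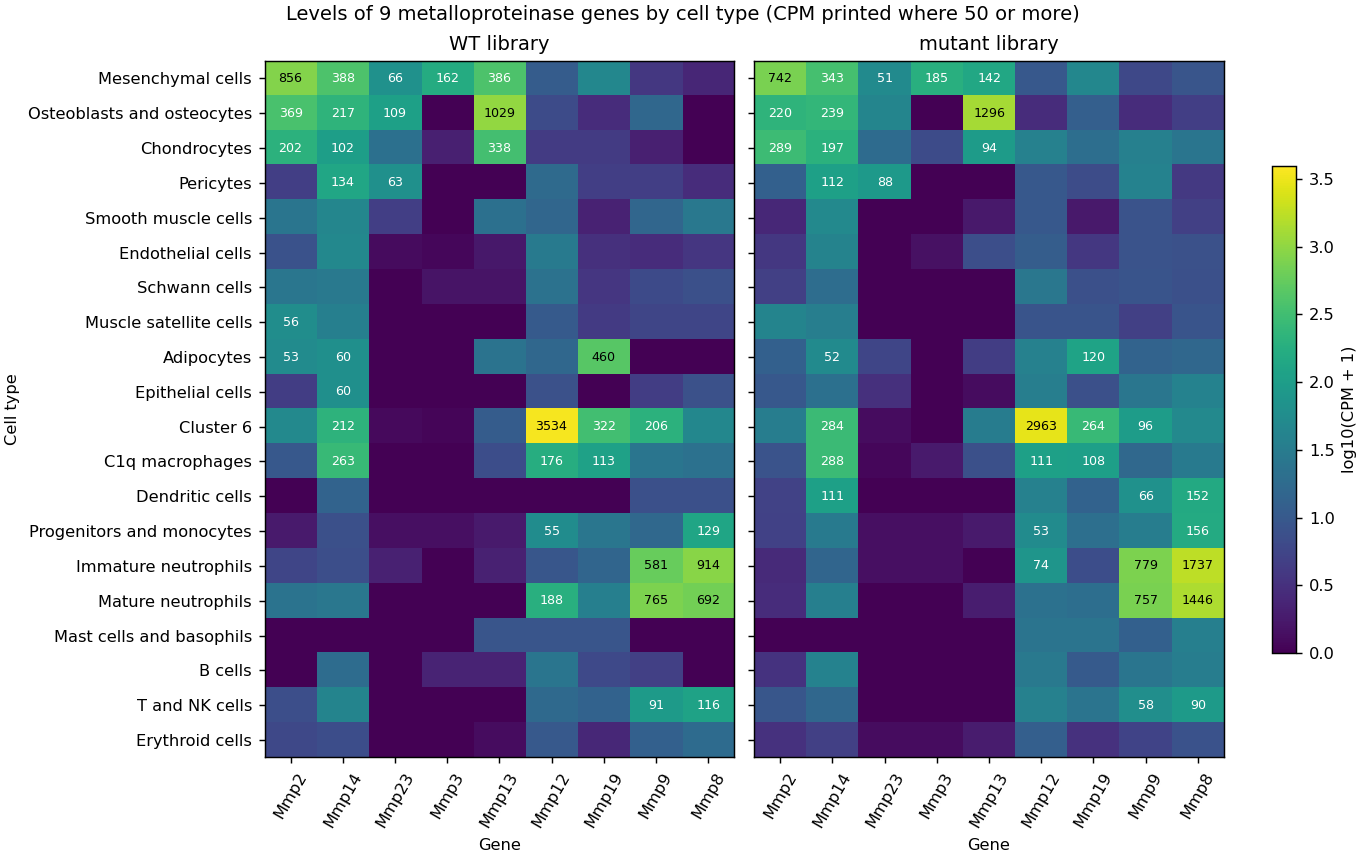
Levels of the 9 Mmp genes (columns) in 20 named cell types (rows) of the WT and the mutant library, coloured by log10(CPM + 1), with the CPM printed where it was 50 or more. The stromal genes on the left peak in mesenchymal cells or osteoblasts, except Mmp23 in the mutant, which peaks in pericytes (88.2 CPM). Mmp12 peaks in cluster 6 (3534 and 2963 CPM), as does Mmp19 apart from 7 WT adipocytes (460 CPM), and Mmp9 and Mmp8 peak in the neutrophils.

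Summed over the members, the kept cells held 67191 Mmp UMIs in WT (1389 CPM) and 57673 in the mutant (1062 CPM). Mmp12 alone made up 49.2% of these UMIs in WT and 40.1% in the mutant. Cluster 6 held 54.9% of them in WT and 41.7% in the mutant, against 17.4% and 11.9% of all UMIs. Mesenchymal cells held 23.4% and 16.0%, and immature neutrophils 3.94% and 11.0%. After thinning, 7.36% of WT cells of cluster 6 had a UMI of no member and 23.3% of at least 3 members, against 89.9% and 0% of the 119 thinned WT B cells. The members are taken below as stromal, cluster 6 and neutrophil genes, by their highest level among types with at least 20 cells. The UMI shares, which the chart below sets out, did not follow this order for every member. In WT, Mmp9 had 42.1% of its UMIs in cluster 6, against 24.3% in immature and 13.0% in mature neutrophils. Of 7776 mutant Mmp14 UMIs, 2071 lay in mesenchymal cells, 1840 in cluster 6 and 1742 in C1q macrophages.

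**Figure D2:**
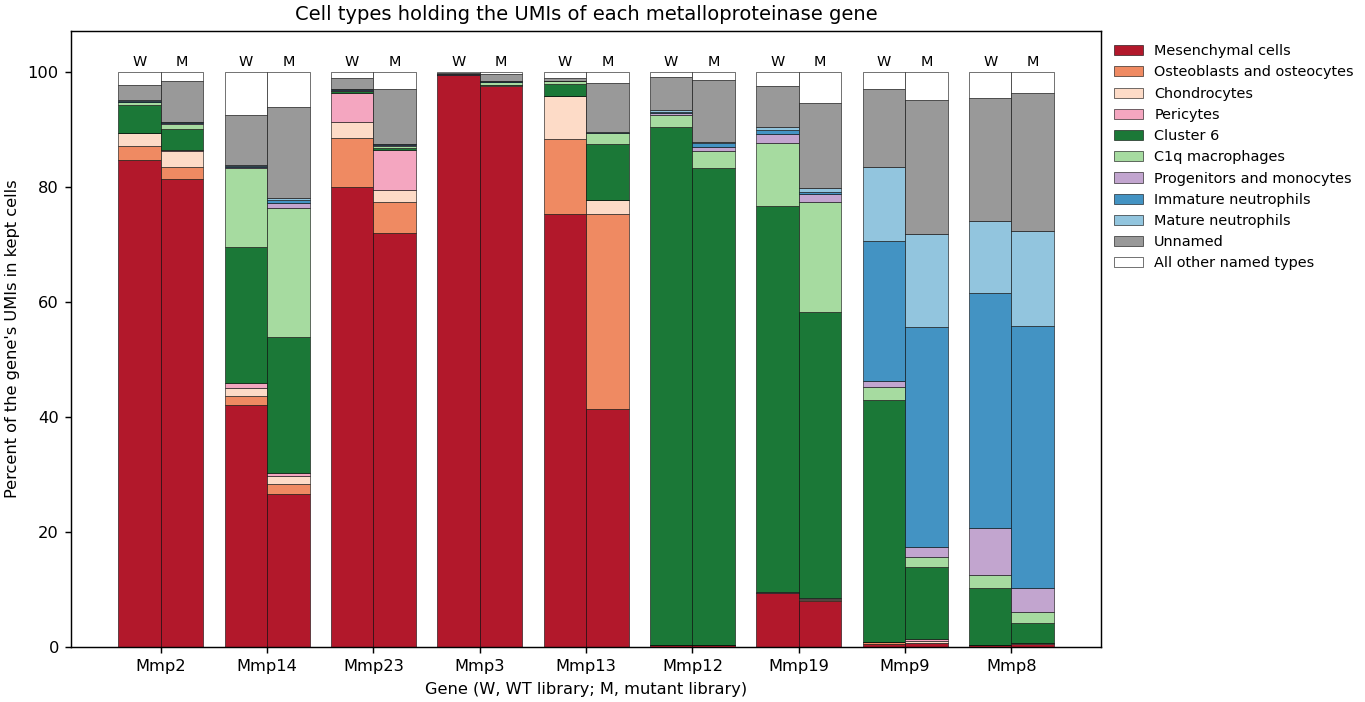
Percent of each gene's UMIs (vertical axis) that lay in each cell type, with 1 bar for the WT (W) and 1 for the mutant (M) library. Mesenchymal cells held 84.6% and 81.3% of Mmp2 and 99.3% and 97.5% of Mmp3, cluster 6 held 90.1% and 83.0% of Mmp12, and the share of Mmp9 in cluster 6 was 42.1% in WT and 12.5% in the mutant.

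Mmp2, the secreted gelatinase that cuts denatured collagen and type IV collagen, had its highest level in mesenchymal cells in both libraries under the settings used here. Some other settings moved it to chondrocytes or osteoblasts, as given at the end. It stood at 856 CPM (836 to 876, 7020 UMIs, 545 cells) in WT mesenchymal cells and at 742 CPM (720 to 764, 4475 UMIs, 357 cells) in mutant ones, for a log2 ratio of -0.21 (-0.26 to -0.15). The intervals did not overlap, but the difference was far under 2-fold. Osteoblasts and osteocytes came next in WT, at 369 CPM (319 to 424), ahead of chondrocytes at 202 (174 to 233). In the mutant library chondrocytes stood at 289 CPM (245 to 338) and osteoblasts at 220 (182 to 264), so that these intervals overlapped, and 42.9% of the mutant osteoblast UMIs came from 1 cell. After thinning, Mmp2 was found in 71.3% of WT and 61.4% of mutant mesenchymal cells (91.2% and 80.7% before thinning), against 0% and 1.09% of B cells (0% and 1.71% before). Its UMIs were spread over many cells, with 101 WT and 63 mutant cells needed to hold 50% of them.

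The mesenchymal cells were made of cluster 2, with Clec3b, Prg4 and Pi16 among its leading genes, and cluster 15, led by Tnn, Fmod and Postn. Cluster 2 best matched a list of Pi16 fibroblast markers (5 of 5 raised). Cluster 15 best matched a list of tendon cell markers (3 of 5 raised). Mmp2 was higher in cluster 15 in both libraries, at 1029 CPM in WT and 1204 in the mutant, against 784 and 586 in cluster 2. The libraries therefore ran in opposite directions in the 2 clusters, with a log2 ratio of 0.23 (0.14 to 0.32) in cluster 15 and -0.42 (-0.49 to -0.35) in cluster 2.

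Mmp14, the membrane-bound enzyme that activates pro-Mmp2 at the cell surface, had the widest distribution of the 9 genes. It stood at 388 CPM (375 to 402) in WT against 343 (329 to 358) in mutant mesenchymal cells, and no other named type reached this level. C1q macrophages were at 263 (247 to 279) and 288 (274 to 302), cluster 6 at 212 (203 to 222) and 284 (272 to 298), and osteoblasts at 217 (180 to 261) and 239 (199 to 284). These 3 types did not differ beyond their intervals in the mutant library, and in WT only C1q macrophages and cluster 6 did. Cluster 15 again lay above cluster 2, at 628 and 591 CPM against 288 and 260. Between the libraries the log2 ratio was -0.18 (-0.26 to -0.10) in mesenchymal cells, 0.13 (0.02 to 0.24) in C1q macrophages and 0.42 (0.33 to 0.52) in cluster 6.

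Mmp2 was found in a larger share of the mesenchymal cells with an Mmp14 UMI than of those without. Among thinned mesenchymal cells with an Mmp14 UMI, 82.0% (76.3 to 86.8, 222 cells) had an Mmp2 UMI in WT, against 63.7% (58.0 to 69.0, 311 cells) of those without. In the mutant library the shares were 73.2% (65.2 to 80.3, 142 cells) and 52.4% (45.0 to 59.7, 187 cells). Both libraries thus had the same order, with exact binomial intervals that did not overlap. Cells of 1 library are not replicates. Both genes were also higher in cluster 15 than in cluster 2, and the part of this in the co-detection was not tested.

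Mmp23, a short membrane-linked enzyme whose role is less well known than that of the others, was the least captured of the stromal members. Mesenchymal cells held 79.9% of its UMIs in WT and 71.9% in the mutant, at 66.0 CPM (60.5 to 71.8, 541 UMIs) and 51.4 (45.8 to 57.4, 310 UMIs). Osteoblasts stood at 109 CPM (82.5 to 141, 58 UMIs in 18 of 27 cells) in WT against 42.6 (27.0 to 63.9, 23 UMIs in 8 of 22 cells) in the mutant library, for a log2 ratio of -1.35 (-2.12 to -0.63). Pericytes went the other way, from 63.4 (43.9 to 88.6, 34 UMIs) to 88.2 (59.5 to 126, 30 UMIs), within overlapping intervals. The osteoblast markers also summed to less in the mutant osteoblasts (16264 CPM) than in WT (38701 CPM), and their part in the Mmp23 difference was not tested.

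Mmp3, stromelysin 1, which cuts proteoglycans and activates other Mmps, lay almost wholly in mesenchymal cells. Its level there was 162 CPM (154 to 171, 1330 UMIs) in WT against 185 (175 to 197, 1119 UMIs) in the mutant, and no other named type exceeded 6 CPM in either library. The gene was carried by few cells: 89 of 545 WT and 57 of 357 mutant mesenchymal cells had a UMI. The richest cell held 413 UMIs, 31.1% of the total, in WT and 540 UMIs, 48.3%, in the mutant, and 4 and 2 cells together held 50%. The richest WT cell also held 229 Mmp13 UMIs and the richest mutant cell 20. Both belonged to cluster 2 and carried 1437 and 913 UMIs of the mesenchymal markers, and neither was called a doublet. With such cells in the sum, the log2 ratio of 0.19 (0.08 to 0.31) turned to -0.22 when the richest cell was left out of each library, so that no direction can be given.

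**Figure D3:**
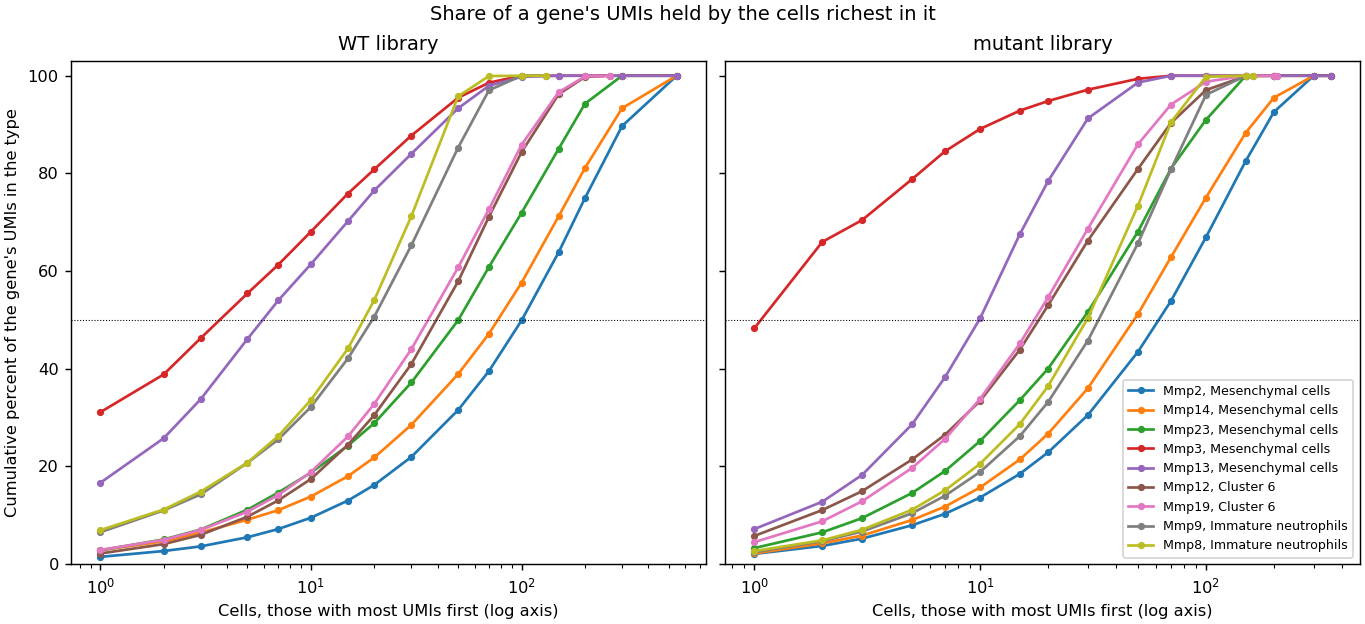
Cumulative percent of a gene's UMIs (vertical axis) held by the cells richest in it (horizontal axis, log scale), in 1 main cell type per gene, for both libraries. Mmp3 reached 50% of its UMIs with 4 WT and 2 mutant cells and Mmp13 with 6 and 10, whereas Mmp2 needed 101 and 63.

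Mmp13, collagenase 3, the main collagenase of rodent cartilage and bone, had its highest level in osteoblasts and osteocytes and was lower in the mutant library in mesenchymal cells. Osteoblasts held 1029 CPM (944 to 1118, 549 UMIs in 18 of 27 cells) in WT against 1296 (1201 to 1395, 700 UMIs in 16 of 22 cells) in the mutant library, for a log2 ratio of 0.33 (0.17 to 0.50). Osteoclast markers summed to 9.37 and 7.40 CPM in these cells, near 0. In mesenchymal cells Mmp13 stood at 386 CPM (373 to 400, 3165 UMIs) in WT against 142 (133 to 152, 857 UMIs) in the mutant library, for a log2 ratio of -1.44 (-1.55 to -1.33). The share of cells differed far less than the level, since a UMI was found in 107 of 545 WT and 60 of 357 mutant cells, or in 13.5% and 11.6% after thinning, against 0.840% and 0% of B cells.

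Most of the mesenchymal difference in Mmp13 lay in cluster 2. There it had 1306 UMIs in 15 of 373 WT cells (226 CPM) and 41 UMIs in 5 of 250 mutant cells (9.09 CPM), a log2 ratio of -4.63 (-5.12 to -4.19). In WT, 5 cells held 87.8% of these UMIs and the richest held 525, so the difference in this cluster rests on few WT cells. In cluster 15, where 92 of 172 WT and 55 of 107 mutant cells had a UMI, Mmp13 stood at 769 and 536 CPM, a log2 ratio of -0.52 (-0.64 to -0.40). The broad source of Mmp13 among mesenchymal cells was therefore cluster 15 in both libraries, with a difference within 2-fold.

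In chondrocytes Mmp13 was at 338 CPM (302 to 378, 315 UMIs) in WT against 93.8 (69.6 to 124, 50 UMIs) in the mutant library, for a log2 ratio of -1.85 (-2.31 to -1.42). A single WT cell with 247 UMIs made up 78.4% of the WT value, and without the richest cell of each library the log2 ratio was 0.19. That cell carried 2820 UMIs of osteoblast markers and 675 of chondrocyte markers. A UMI was found in 5 of 29 WT and 33 of 102 mutant chondrocytes, and the chondrocyte markers themselves summed to 40929 CPM in WT and 5475 in the mutant. What these cells share in name they therefore did not share in marker level, and the part of this in the Mmp13 values was not tested.

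Of the types holding at least 5% of Mmp13 UMIs in either library, only cluster 6 was 2-fold or more higher in the mutant. It held 2.02% of them in WT and met that limit only in the mutant library. Mmp13 stood there at 31.2 CPM (27.1 to 35.8, 202 UMIs) in the mutant against 10.1 (8.06 to 12.5, 85 UMIs) in WT, a log2 ratio of 1.63 (1.26 to 2.01). Again few cells carried it: 22 of 262 WT and 14 of 207 mutant cells had a UMI, and those with at least 10 UMIs were 2 in WT and 6 in the mutant. The 6 mutant cells held 187 of the 202 UMIs. They held 7 to 1095 Mmp12 UMIs each, between 0 and 365 UMIs of mesenchymal markers and between 0 and 98 of osteoblast markers. The 2 WT cells held 2 to 4 UMIs of mesenchymal and 12 to 20 of osteoblast markers. The richest mutant cell, with 66 Mmp13 UMIs, held 69 of Mmp12 and 0 of the mesenchymal markers. It also held 4 UMIs of osteoblast, 17 of general macrophage, 38 of M1-like and 22 of immature neutrophil markers. After thinning, 1.55% of WT and 2.02% of mutant cells of the cluster had an Mmp13 UMI.

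Mmp13 was found in a slightly larger share of the mesenchymal cells with an Mmp3 UMI than of those without. Among thinned cells with an Mmp3 UMI, 18.2% (8.19 to 32.7, 44 cells) had an Mmp13 UMI in WT, against 13.1% (10.2 to 16.4) of those without, and 16.7% (4.74 to 37.4, 24 cells) against 11.1% (7.84 to 15.2) in the mutant. These intervals overlapped in both libraries, so that no direction can be given. Some rich cells held both genes. In WT the cell richest in Mmp3 (413 UMIs) had 229 Mmp13 UMIs, and the mesenchymal cell richest in Mmp13 (525 UMIs) had 39 of Mmp3.

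Mmp12, macrophage elastase, was the marker of cluster 6 among the members, although no Mmp gene was used in clustering. It stood at 3534 CPM (3494 to 3575, 29789 UMIs) in WT against 2963 (2922 to 3006, 19172 UMIs) in the mutant library, for a log2 ratio of -0.25 (-0.28 to -0.23). After thinning, 76.7% of WT and 65.2% of mutant cells of the cluster had a UMI (88.2% and 79.2% before), against 5.04% and 6.52% of B cells (12.2% and 12.0% before). A typical positive cell was rich in it, with a median of 79 UMIs in WT and 45 in the mutant, and 41 and 19 cells held 50% of the total. Cells of the cluster with a UMI of Spp1, osteopontin, had an Mmp12 UMI in 85.6% (79.9 to 90.2) of cases in WT and 80.7% (72.1 to 87.7) in the mutant, against 49.2% and 46.1% of the cells without. That pair was chosen after the values were seen, and Spp1 is one of the markers by which the cluster was named.

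Among the named types outside cluster 6, C1q macrophages held 176 CPM of Mmp12 (163 to 189) in WT against 111 (103 to 120) in the mutant. Some unnamed clusters stood higher. Cluster 11, with a median of 1305 UMIs per cell, held 2292 CPM over 22 WT cells (344 UMIs) and 1055 over 286 mutant cells (993 UMIs). Cluster 23 held 1979 CPM in WT (712 UMIs) and 912 in the mutant (595 UMIs). The value of 188 CPM in WT mature neutrophils came to 84.8% from 1 cell with 112 UMIs, and the mutant value was 20.8 CPM. Likewise 161 of the 179 UMIs in mutant immature neutrophils (73.8 CPM) lay in 1 cell, against 14 UMIs (8.09 CPM) in WT. B cells stood at 24.4 CPM in WT and 27.5 in the mutant.

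Mmp19, a secreted enzyme that cuts basement membrane proteins, followed Mmp12 into cluster 6 at 322 CPM (310 to 334, 2712 UMIs) in WT against 264 (252 to 277, 1710 UMIs) in the mutant library, for a log2 ratio of -0.28 (-0.37 to -0.20). C1q macrophages stood at 113 CPM (103 to 124) and 108 (99.9 to 117), and mesenchymal cells at 45.8 (41.3 to 50.7) and 45.1 (39.9 to 50.8). The latter 2 types thus had about the same level in both libraries. Adipocytes had the top WT value, 460 CPM (352 to 590), but from 7 cells, and stood at 120 CPM (97.9 to 145) over 179 cells in the mutant.

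Within cluster 6, Mmp19 was found in a larger share, and Mmp14 in a smaller share, of the cells with Mmp12 than of those without. An Mmp19 UMI was found in 37.4% (30.6 to 44.5) of Mmp12-positive and 23.3% (13.4 to 36.0) of Mmp12-negative thinned WT cells, and in 30.2% (22.5 to 38.9) and 14.5% (7.17 to 25.0) of mutant ones. For Mmp14 the shares ran the other way, 28.3% (22.1 to 35.1) against 40.0% (27.6 to 53.5) in WT and 33.3% (25.3 to 42.2) against 49.3% (37.0 to 61.6) in the mutant. The intervals overlapped in each of these 4 comparisons, and the order was the same in both libraries.

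**Figure D4:**
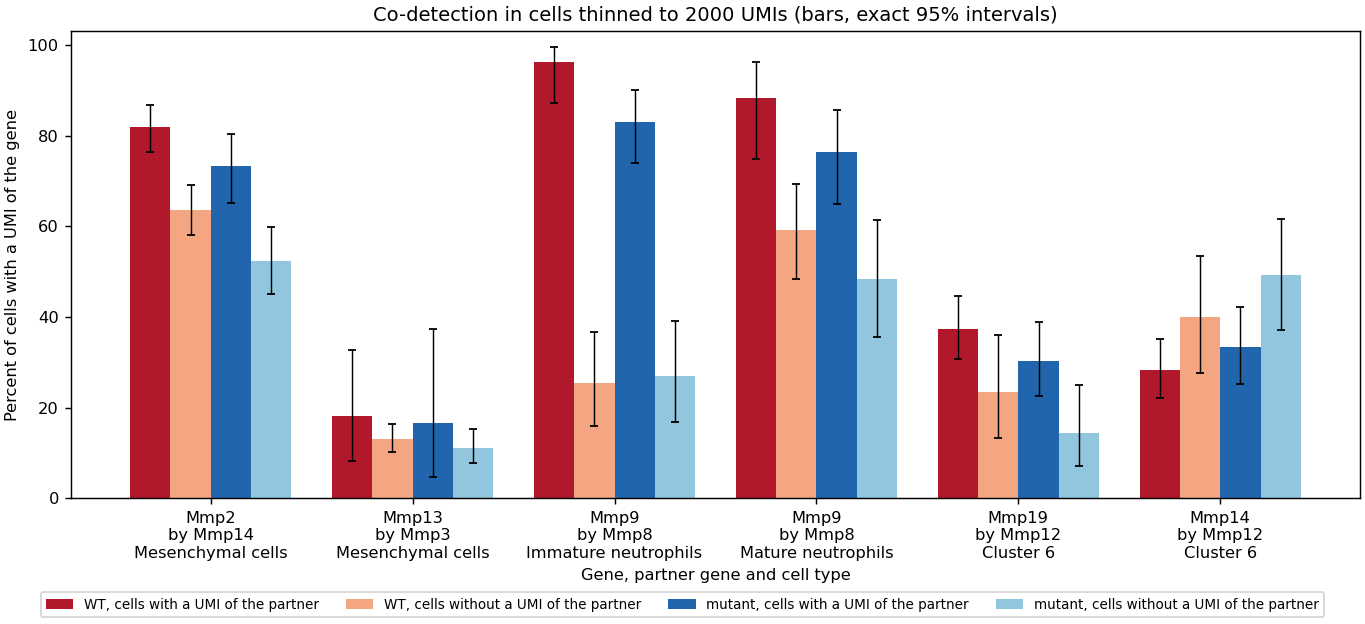
Percent of cells with a UMI of a gene (vertical axis) among cells with (dark) and without (light) a UMI of a partner gene, thinned to 2000 UMIs, in the WT (red) and mutant (blue) library, with exact 95% intervals. Mmp9 stood at 96.3% with and 25.3% without Mmp8 in WT immature neutrophils, whereas Mmp14 was lower with Mmp12 (28.3% against 40.0% in WT).

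Mmp8, the neutrophil collagenase, which is stored in granules, was the member with the highest mutant over WT ratio over all kept cells. In immature neutrophils it stood at 914 CPM (870 to 961, 1582 UMIs, 130 cells) in WT against 1737 (1685 to 1790, 4214 UMIs, 161 cells) in the mutant library, for a log2 ratio of 0.93 (0.84 to 1.01). Mature neutrophils held 692 CPM (632 to 756, 485 UMIs) and 1446 (1374 to 1520, 1529 UMIs), a log2 ratio of 1.06 (0.92 to 1.21). The share of cells moved with the level, from 41.9% in WT to 58.4% in the mutant for thinned immature neutrophils (54.6% and 67.7% before thinning) and from 31.6% to 53.7% for mature ones (40.1% and 52.6% before), and the median positive mature cell had 3 UMIs in the WT and 8 in the mutant library. Progenitors and monocytes stood at 129 (115 to 144) and 156 CPM (141 to 172), and cluster 6 at 45.6 (41.1 to 50.4) and 48.8 (43.6 to 54.5). In each of these 2 types, 4 mutant cells held 50% of the Mmp8 UMIs, against 16 WT cells. A UMI was found in 80 of 138 WT and 64 of 168 mutant progenitors and monocytes. In cluster 6 it was found in 101 of 262 and 49 of 207 cells.

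The neutrophil names covered cells that were not equal in the 2 libraries. Markers of immature neutrophils summed to 110477 CPM in WT and 84017 in the mutant immature cells, and markers of mature neutrophils to 74661 and 117243 CPM in the mature cells. Neutrophil RNA also differed outside neutrophils, with Mmp8 values in both directions and the marker sums below higher in the mutant library. Mmp8 had 0 UMIs in 147 WT B cells (0 to 4.75 CPM) and 32.3 CPM (21.3 to 47.0) in the mutant ones. It stood at 26.8 CPM in WT against 3.73 in the mutant in smooth muscle cells and at 17.4 against 7.10 CPM in erythroid cells. Those WT values came from few cells. The 44 UMIs of smooth muscle lay in 4 cells, and 42 of the 58 erythroid UMIs lay in 1 cell. In T and NK cells Mmp8 stood at 116 and 89.9 CPM, within 2-fold, with 27 of 37 UMIs in 1 WT cell and 45 of 54 in 1 mutant cell. The mature neutrophil markers summed to 157 CPM in WT against 656 in the mutant in mesenchymal cells, to 984 against 2598 CPM in cluster 6 and to 569 against 1644 CPM in C1q macrophages. The part of these shifts in the Mmp8 values was not tested. Mmp8 in the neutrophils stood far above the B cell level in both libraries.

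Mmp9, the gelatinase of neutrophil tertiary granules and also of osteoclasts and macrophages, did not follow Mmp8 between the libraries. Mature neutrophils stood at 765 CPM (701 to 832) in WT against 757 (705 to 811) in the mutant library, for a log2 ratio of -0.02 (-0.17 to 0.15). Immature neutrophils held 581 CPM (545 to 618) and 779 (745 to 815), a log2 ratio of 0.42 (0.31 to 0.54), so that the mature cells led in WT and the stages could not be told apart in the mutant. In cluster 6 Mmp9 was at 206 CPM (197 to 216, 1738 UMIs) in WT against 95.5 (88.1 to 103, 618 UMIs) in the mutant library, for a log2 ratio of -1.11 (-1.24 to -0.98). The thinned share of cells with a UMI there was 19.0% in WT and 7.58% in the mutant (50.4% and 34.3% before thinning), against 0% (0 to 3.05, 119 cells) and 5.43% (1.79 to 12.2, 92 cells) of B cells. The mutant share (4.30 to 12.2) thus overlapped that of the mutant B cells, while its level of 95.5 CPM lay above their 23.9 CPM (14.6 to 37.0). The cluster held 42.1% of all Mmp9 UMIs in WT and 12.5% in the mutant. The osteoclast markers of cluster 6, uneven as given above, also summed to less in the mutant library, at 818 against 1271 CPM. The M1-like markers summed to 4757 against 6700 CPM. The part of both sums in the Mmp9 difference was not tested.

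The 2 neutrophil enzymes were found in the same cells. In thinned immature neutrophils, 96.3% (87.3 to 99.5) of Mmp8-positive WT cells had an Mmp9 UMI, against 25.3% (16.0 to 36.7) of Mmp8-negative cells, and 83.0% (73.8 to 89.9) against 26.9% (16.8 to 39.1) in the mutant. Mature neutrophils had 88.4% (74.9 to 96.1) against 59.1% (48.5 to 69.2) in WT and 76.4% (64.9 to 85.6) against 48.4% (35.5 to 61.4) in the mutant. More mature cells than immature cells thus held Mmp9 without Mmp8 in both libraries.

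Between the libraries, a difference was counted when the CPM of a gene with at least 20 UMIs over both libraries differed by 2-fold or more. Over all kept cells 2 of 9 members were past that limit, against 12.6% of all genes, with Mmp8 higher (80.0 against 170 CPM, log2 ratio 1.09) and Mmp13 lower in the mutant (87.0 against 38.1 CPM, log2 ratio -1.19). The Mmp8 ratio was within 2-fold with doublets removed (0.96) and as the mean of per-cell CPM (0.85). In the named cells alone the count was again 2 of 9, against 12.3% of all genes. With each cell type set to its share of WT UMIs, the log2 ratio was 0.70 for Mmp8 and -0.83 for Mmp13, so both kept their direction and neither reached 2-fold. For Mmp2 the log2 ratio was -0.76 over all cells and -0.23 at the WT mix, for Mmp12 -0.69 and -0.28, and for Mmp23 -0.82 and -0.34. The difference of these genes over all cells thus shrank at the WT mix, beside the smaller share of mesenchymal cells (11.1% against 17.0% of UMIs) and of cluster 6. For Mmp3 (-0.39 and 0.20), Mmp9 (0.09 and -0.18) and Mmp14 (-0.13 and 0.07) the sign changed with the mix, and Mmp19 stood at -0.40 and -0.23.

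Within cell types, the members' counts were read against all genes of the same type. In mesenchymal cells 2 of 9 tested members were past 2-fold (background 8.63%), Mmp13 and Mmp8, the latter from 1.46 to 7.79 CPM. In cluster 6 they were 2 of 7 (9.85%), Mmp9 and Mmp13, and in mature neutrophils 2 of 5 (16.3%), Mmp8 and Mmp12. Osteoblasts had 1 of 4 (16.1%), Mmp23, and chondrocytes 3 of 6 (31.7%), Mmp13 with Mmp9 and Mmp12 at 1.07 and 3.22 CPM in WT and 35.6 and 37.5 CPM in the mutant. C1q macrophages had 0 of 7 (7.96%) and pericytes 0 of 2 (12.2%).

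Other types also had members past 2-fold. Immature neutrophils had 3 of 5 (8.4%), namely Mmp12 (8.09 against 73.8 CPM), Mmp14 and Mmp19. Progenitors and monocytes had 2 of 5 (9.09%), namely Mmp9 (15.5 against 32.5 CPM) and Mmp14, and endothelial cells 5 of 7 (7.05%), the latter all at under 30 CPM in both libraries. The types with few cells held larger values, as with Mmp19 in adipocytes above, and in dendritic cells Mmp8 stood at 6.61 CPM in WT (1 UMI) against 152 in the mutant (37 UMIs) and Mmp14 at 13.2 (2 UMIs) against 111 (27 UMIs). All 37 mutant Mmp8 UMIs lay in 1 cell, which was called a doublet and held 2070 UMIs of mature neutrophil markers. They are therefore not a level of dendritic cells. Over the 20 named types, 93 of 180 pairs of a member and a type could be compared. Of these, 42 were past 2-fold, 24 higher and 18 lower in the mutant, against 13.7% over all genes. They include calls in types that each held at most 0.75% of a library's Mmp UMIs. B cells, the background type, had 3 of 4 higher and 0 lower, against 10.0% and 6.05% of all genes there. Epithelial cells had 5 higher and 1 lower of 6 (13.8% and 6.54%). Erythroid cells had 0 and 3 of 6 (4.10% and 11.8%), and smooth muscle cells 0 and 3 of 6 (2.61% and 4.73%). The 42 calls thus do not describe the main sources of the members alone. Restricted to the types that held at least 5% of a member's UMIs in either library, 23 pairs remained. Of these, 17 stayed within 2-fold, 2 were higher and 4 lower. No share of all genes is given for this count, so it has no background to be read against. Mmp13 met the 5% limit in cluster 6 only in the mutant and in chondrocytes only in WT, each time the library with the higher level. The choice of these pairs was thus not independent of the difference.

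**Figure D5:**
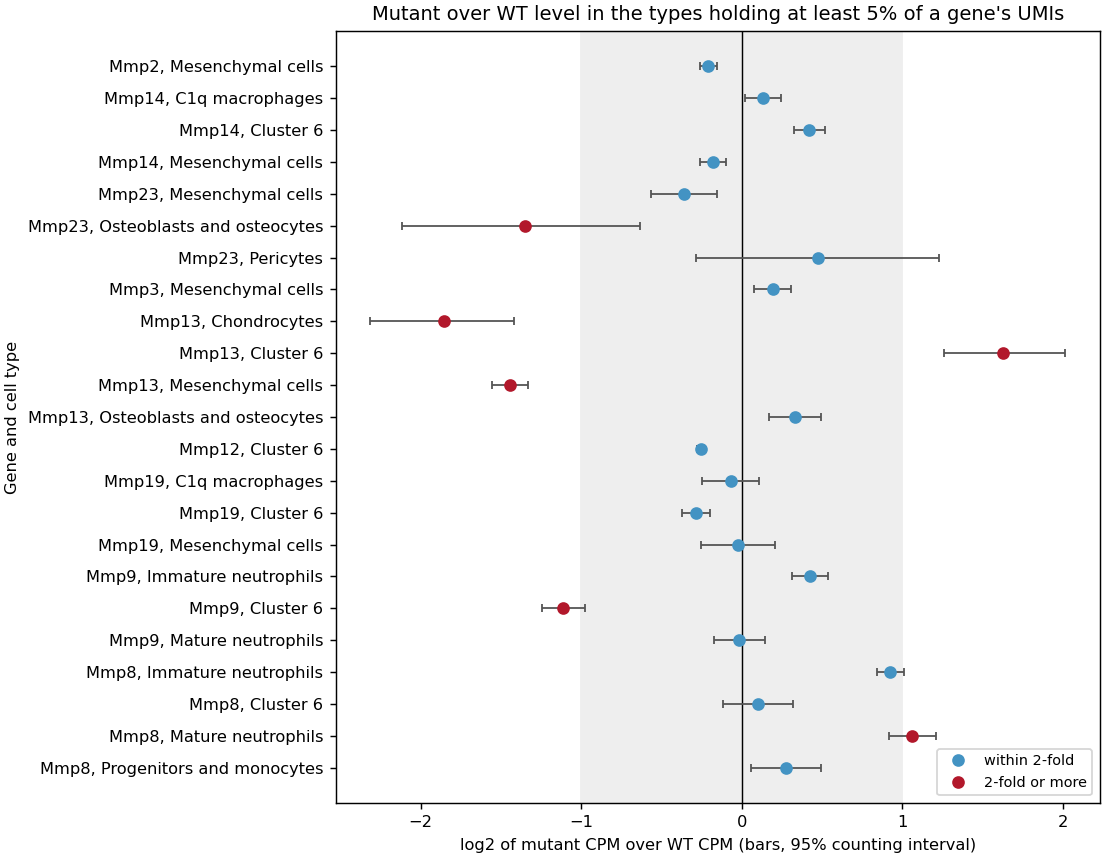
Log2 of mutant over WT CPM (horizontal axis, bars are 95% counting intervals) for the 23 pairs of a gene and a cell type holding at least 5% of its UMIs in either library, with the grey band marking less than 2-fold. The 6 red points outside the band are Mmp13 in mesenchymal cells, chondrocytes and cluster 6, Mmp23 in osteoblasts, Mmp9 in cluster 6 and Mmp8 in mature neutrophils. Mmp13 met the 5% limit in cluster 6 only in the mutant and in chondrocytes only in WT.

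Of these 6 differences, Mmp13 in mesenchymal cells (log2 ratio -4.97 to -1.22 over 10 alternatives) and in cluster 6 (1.39 to 2.32 over 9) passed 2-fold under every alternative of filtering, clustering and summing that gave a value. Mmp9 in cluster 6 was past it in 8 of 9 alternatives and Mmp23 in osteoblasts in 7 of 8. Mmp8 in mature neutrophils was past it in 6 of 10, with log2 ratios of 0.62 to 1.21, and Mmp13 in chondrocytes in 6 of 10, with a change of sign in 2.

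The members stood low in B cells and in endothelial cells. In B cells Mmp2, Mmp3, Mmp13 and Mmp23 had at most 2 UMIs in a library, Mmp12 was at 24.4 and 27.5 CPM, Mmp14 at 18.0 and 38.3 CPM, and Mmp9 at 3.86 and 23.9 CPM. Endothelial cells, the largest WT type with 1015 cells (514 in the mutant), held 46.8 and 40.1 CPM of Mmp14 and less of every other member. One mutant endothelial cell carried 25 of the 29 Mmp13 UMIs found there. Free RNA taken up in droplets gives UMIs in cells that do not express a gene, and values at or under those of B cells are read here as background.

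Of the genes that act with the members, 3 of the 6 inhibitors that hold them in check were lower in the mutant library as a whole. These 3 were lower by 2-fold or more over all kept cells, as were 6.51% of all genes, and 0 were higher. The median log2 ratio of the 6 was -0.87, against -0.08 over all genes. The 3 were A2m, the plasma protease trap, at -3.14 (165 against 21 UMIs), Timp4 at -1.65 and Timp1 at -1.05. Within mesenchymal cells 1 of 5 was lower, against 5.04% of all genes there, with a median of -0.20 against 0.03 over all genes there. In cluster 6, by contrast, 1 of 3 was higher and 0 lower, namely Timp3 at 1.85, against 7.35% and 2.51% of all genes there. In C1q macrophages again 1 of 3 was higher and 0 lower, Timp3 at 1.91, against 5.76% and 2.20% of all genes there. Of the matrix substrates 6 of 11 were lower over all kept cells, against the same 6.51%, and 0 higher, with a median of -1.06, led by the cartilage genes Col2a1 (-3.96) and Acan (-1.37) and by elastin, Eln (-1.30). In mesenchymal cells 2 of 11 were lower, against 5.04% of all genes there, with a median of -0.30. Chondrocytes had 5 of 11 lower and 2 higher, against 9.46% and 22.2% of all genes there. Endothelial cells had 5 of 10 lower and 0 higher (3.43% and 3.63%). Immature neutrophils had 5 of 6 and 0 (4.03% and 4.38%), and mature neutrophils 6 of 8 and 1 (8.07% and 8.19%). Osteoblasts had 3 of 9 and 1 (4.58% and 11.5%), and C1q macrophages 1 of 9 and 0 (2.20% and 5.76%). In cluster 6, 4 of 11 were higher and 2 lower, against 7.35% and 2.51% of all genes there. The median was 0.30 against 0.21 over all genes there. The libraries also differed in make-up. Mesenchymal cells held 17.0% of all UMIs in WT and 11.1% in the mutant, endothelial cells 14.7% and 8.48%, and chondrocytes 1.93% and 0.981%. The part of this in the whole-library values was not tested.

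Among 11 aggrecanases and ADAMs, Adamts4, an aggrecanase, was the only 1 past 2-fold over all kept cells (-1.29), against 12.6% of all genes. It was followed by Adamts9 (-0.94) and the aggrecanase Adamts5 (-0.73). None of the 11 was past 2-fold in mesenchymal cells, against 8.63% of all genes there, and 0 of 10 in endothelial cells (7.05%). In C1q macrophages 3 of 8 were higher and 0 lower, against 5.76% and 2.20% of all genes there. Cluster 6 had 0 of 8 higher and 2 lower, against 7.35% and 2.51%. Chondrocytes had 2 of 8 higher and 2 lower, against 22.2% and 9.46%. Of 7 activators, 1 was lower, against 6.51% of all genes, namely Ctsg (-1.10), the neutrophil cathepsin G. Plat, tissue plasminogen activator, stood at -0.96 and neutrophil elastase, Elane, at -0.81. None of 8 inducing cytokines was past 2-fold over all cells, against 12.6% of all genes. The furthest from 0 there were Il17a (-0.68), Il6 (-0.40) and Tnf (0.32). In mesenchymal cells 4 of 8 were lower, against 5.04% of all genes there. These lists were chosen with earlier results of the data known.

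Genes whose levels ran most like a member's across 37 points, the named types of both libraries, were picked by Pearson correlation of log2(CPM + 5) over 13695 genes. Mmp2 ran with Lum (r = 0.92), Tpbg (0.90) and Dcn (0.88), of which Lum and Dcn are fibroblast proteoglycans. Mmp13 ran with Zfp469 (0.94), Sp7 (0.93), the osteoblast transcription factor, and Wif1 (0.92), Mmp23 with Dlx6 (0.95), Gm32618 (0.93) and Tmem45a (0.93), and Mmp3 with Ostn (0.97), Crabp2 (0.96) and Lrrn4cl (0.96). For Mmp14 the closest were Sh3pxd2b (0.85), Ecm1 (0.83) and Ctsk (0.82), the lowest values among the members.

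In the immune set, Mmp12 ran with H2-M2 (0.91), Dcstamp (0.90) and Clec1b (0.88), and Mmp19 with Saa3 (0.93), Cfb (0.87) and Ifi205 (0.86). Mmp8 ran with Cxcr2 (0.95), the neutrophil chemokine receptor, Retnlg (0.94) and Rasgrp4 (0.93), and Mmp9 with B430306N03Rik (0.92), Cd33 (0.91) and Mirt2 (0.91). Among the members the closest pairs were Mmp8 and Mmp9 (0.91), Mmp2 and Mmp13 (0.86) and Mmp12 and Mmp19 (0.78). Lum, Dcn, Sp7, Cxcr2 and Retnlg are among the markers by which the types were named, so that high values with them are partly built in. The Mmp3 values rest mainly on the mesenchymal points, since Mmp3 lay almost wholly in those cells. The points share libraries, depth and cells, so that all these values are a description.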

How the data were processed

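The authors deposited raw UMI counts per gene and cell barcode, 1 table per library, made with Cell Ranger 7.0.1 on GRCm38 (mm10). The annotation version and the treatment of doublets were not given in the sources used here. Barcodes with 500 or more genes and less than 10% of UMIs from mitochondrial genes were kept. They were normalised with sctransform 0.4.2, integrated by anchors and clustered in Seurat 5.3.0 (R 4.3.3; 3000 features without Mmp genes, 200 principal components, resolution 1.5). A cluster was named when at least 3 markers of a list were raised 2-fold, with a mean log2 of at least 1.5. It was left unnamed when another lineage supplied more of its leading genes or had most of its markers raised too. It was also left unnamed when its depth was under 0.333 of the library median and none of its markers led. Clusters 9, 20 and 28 were left unnamed by this depth rule. These limits were set after the clusters were seen. Doublets were kept, since the automatic threshold of Scrublet (scanpy 1.11.5) marked 0 cells. In 1 alternative 239 WT and 462 mutant barcodes were removed by score.

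UMIs were summed per cell type and library. Levels have exact Poisson, shares Clopper-Pearson and ratios conditional binomial 95% intervals (scipy 1.17.1). On Poisson counts simulated from mesenchymal cells, the model these intervals assume, the ratio intervals covered 95.8% of true values over 13840 genes. This checks the calculation only, because UMIs gathered in few cells were not simulated. A ratio past 2-fold over at least 20 UMIs was counted, with no test, as each genotype had 1 library. All 9 members are named, with at most 3 genes per related list by size of the log2 ratio and the 3 most similar genes per member. The members and lists were chosen with earlier results of these data known.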

Additional observations from a re-analysis of the deposited data

Results flagged for a closer look

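Mmp13 ran in opposite directions between the libraries in cell types that held at least 5% of its UMIs in at least 1 library. Cluster 6 met this limit only in the mutant library (202 of 2071 UMIs, against 85 of 4208 in WT). Chondrocytes met it only in WT (315 of 4208 UMIs, against 50 of 2071 in the mutant). The choice of these types was thus not independent of the difference. The log2 ratio of mutant over WT for Mmp13 was 1.63 in cluster 6 and -1.44 in mesenchymal cells, a difference of 3.07. Against chondrocytes, at -1.85, the difference was 3.48. Neither difference was tested, because each genotype had 1 library. In all 3 types few cells held most of the UMIs: the richest cell held 16.6% of the WT mesenchymal, 78.4% of the WT chondrocyte and 32.7% of the mutant cluster 6 UMIs. Without the richest cell of each library the chondrocyte ratio was 0.19 and no longer opposed that of cluster 6.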

How the results depend on the processing

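No paired analysis was possible because each genotype had 1 library. The 24 higher and 18 lower pairs of a member and a cell type (of 93) became 15 and 9 of 76 without the richest cell of each type and library, and 10 and 11 of 62 with at least 50 UMIs. The lower pairs numbered 11 when cells needed 1000 genes and less than 5% of UMIs from mitochondrial genes, 28 at 1.5-fold and 7 at 3-fold. For the alternatives in this section no share of all genes is given. Their counts therefore have no background to be read against. Restricted to types with at least 5% of a member's UMIs in either library, an alternative chosen after seeing the data, 2 were higher and 4 lower. Over all kept cells the count of 1 higher member became 0 with doublets removed, with the mean of per-cell CPM and at 3-fold, and that of 1 lower member became 4 at 1.5-fold and 0 at 3-fold. Of the 9 members, 5 kept their highest cell type when libraries were merged without integration, 3 at resolution 0.5 and 6 to 9 under the other settings of filtering, clustering and summing. Mmp2 and Mmp14 moved from mesenchymal cells to chondrocytes with at least 200 genes, with merged libraries and at resolution 0.5. With 30 principal components both moved to osteoblasts and osteocytes. Mmp13 moved from osteoblasts to mesenchymal cells with at least 1000 genes, and to chondrocytes with merged libraries and at resolution 0.5. Mmp13 in chondrocytes changed sign, from a log2 ratio of -1.85 to 0.12 with merged libraries and 0.19 without the richest cell. Mmp9 in cluster 6 was within 2-fold (-0.95) with at least 1000 genes, Mmp23 in osteoblasts (-0.81) with 30 principal components, and Mmp8 in mature neutrophils at 0.91 with at least 200 genes, 0.62 with at least 1000 genes, 0.81 with merged libraries and 0.88 with the mean of per-cell CPM. The causes were not tested. Of the recomputed log2 ratios of all members, 159 stayed within their counting interval, 69 moved beyond it and 2 changed sign. Depth limits the members at few UMIs, such as Mmp23 in osteoblasts, and 1 library per genotype limits every comparison.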

Other observations

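Unnamed clusters also carried members. Cluster 14 (49 WT and 236 mutant cells), where immature neutrophil and macrophage markers were raised together, held 527 CPM of Mmp8 (490 to 566) in WT against 675 (644 to 708) in the mutant, and 340 (311 to 371) and 296 CPM (276 to 318) of Mmp9. It also held 496 CPM of Mmp12 (460 to 534) in WT against 188 (171 to 205) in the mutant. Cluster 23 (53 WT and 106 mutant cells), in which no marker list was raised and Malt1, Mitf and Cd86 were among the leading genes, held 1979 CPM of Mmp12 (1836 to 2130) in WT against 912 (840 to 988) in the mutant, and 409 (345 to 480) and 198 CPM (165 to 235) of Mmp19. Its Mmp14 level was 267 CPM (216 to 326) in WT against 273 (234 to 316) in the mutant. In cluster 40, adipocytes with Adipoq and Plin1 among the leading genes, Mmp19 stood at 463 CPM (354 to 594) over 6 WT cells and 174 (140 to 213) over 24 mutant cells.

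Of 13 other Mmp genes in the tables, 8 had at least 20 UMIs. Over all cells 2 were 2-fold or more higher in the mutant library and 0 lower, against 6.06% and 6.51% of all genes. Mmp10 had 11 UMIs in WT and 293 in the mutant library, for a log2 ratio of 4.57 (3.71 to 5.59), but 246 of the 293 lay in 1 mesenchymal cell. Mmp25, a membrane-anchored enzyme of leukocytes, had 461 and 1065 UMIs, a log2 ratio of 1.04 (0.88 to 1.20), and 40.6% of its UMIs lay in immature neutrophils. Mmp15, a membrane-type enzyme, stood at -0.76 (-0.94 to -0.59), with 26.1% of its UMIs in Schwann cells. Chosen after its values were seen, Mmp16, a relative of Mmp14, had a log2 ratio of 0.05 (-0.06 to 0.16) and 35.2% of its UMIs in osteoblasts and osteocytes, at 843 CPM over both libraries. Mmp1b, Mmp7 and Mmp20 had 0 UMIs in both libraries.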
